A study of Mus musculus with 16 samples.

Results

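The hearts of 9 aged Hap-I mice were compared with those of 4 adult Hap-I mice. These are 13 of the 16 libraries of the series, taken by their group labels, and the 3 hearts of adult C57 mice without Hap-I were left out. Hap-I mice are of the C57/BL6 strain and carry haplotype I of the gene for the human angiotensin II type 1 receptor, so every heart compared here carries it. Of the aged hearts, 4 came from mice labelled without a diet and 5 from mice labelled with a western diet, which is rich in fat and sugar. The 4 adult hearts carry the western diet in their sample labels, although the series' design text names that group without a diet. By these labels aged western-diet hearts share the adults' diet and differ in age, and the other aged hearts differ in age and diet. The design text counts 3 to 5 animals per group. The promoter of the transgene, the sex of the mice, their age in months, their litters, the sequencing runs and the hour of collection are not given in the sources used here. A difference of line, cohort or run between the adult and the aged Hap-I hearts therefore cannot be told apart from age in any value below. The transcripts Gm4737 and Pcna-ps2 were listed at 0 in all 9 aged Hap-I hearts and at 5.27 to 11.1 and 1.5 to 3.66 TPM as deposited in the 4 adults, whereas the 3 adult C57 hearts had 0 and at most 0.135; the part of line or run in this was not tested. The question was which transcripts were shifted in both aged groups alike, whatever their diet.

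Libraries were made from polyadenylated RNA, and levels are TPM, length-corrected transcript abundances, divided by a size factor per library and called scaled TPM. Of 30153 genes in the table, 11272 reached 1 TPM in at least 3 of the 13 libraries and were tested. A single library held 9553 to 11175 genes at 1 TPM or more, and 34.6% to 46.1% of its TPM came from the mitochondrial genome. TPM keep no sequencing depth, so the depth is unknown and errors are spreads between animals. The 18 ventricular muscle markers tested summed to 54819 to 71942 scaled TPM with overlapping groups. Atrial markers varied within groups: their 9 members summed to 255 to 5661 scaled TPM in aged hearts without the diet, 215 to 348 in aged western-diet hearts and 161 to 1422 in adults. Transcripts of the Y chromosome were close to 0 in 5 libraries (replicates 1 to 3 of the aged western-diet group and replicates 1 and 2 of the adults) and present in the other 8. Their bearing on the results was examined only by the covariates and subsets given beside the counts. In bulk tissue, fewer cells of a type and less RNA per cell cannot be told apart.

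The pooled difference between age groups was small for most genes. The mean of both aged groups differed from the adults for 258 genes (limma, Benjamini-Hochberg adjusted p under 0.05), which is 2.29% of the genes tested. Of these, 157 (1.39%) were higher and 101 (0.896%) lower in aged hearts. An unadjusted limma p under 0.05 was reached by 2360 genes (20.9%). Counts of list members at that unadjusted p, given below, stand beside this share. A called gene counted as shifted alike when each aged group differed from the adults in the same direction at an unadjusted p under 0.05 and the 2 aged groups did not differ from each other at that level. This held for 197 genes, or 1.75% of those tested, with 122 (1.08%) higher and 75 (0.665%) lower. The 61 called genes left out all failed the last condition, so the conditions on each aged group removed no gene. Both aged groups were compared with the same 4 adults. Passing the last condition does not show that the aged groups had equal levels. The log2 differences of the genes shifted alike ran from 0.27 to 1.47 with a median of 0.53 upward, and from -3.32 to -0.24 with a median of -0.41 downward. Only 6 of the former and 6 of the latter reached 2-fold. In 134 of the 197, the values of the 9 aged and the 4 adult hearts did not overlap, 79 of them higher and 55 lower in aged hearts. Such separation was seen in 334 (2.96%) of all genes tested, 164 (1.45%) higher and 170 (1.51%) lower.

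The number of genes depended on single hearts. Without adult replicate 1, 2, 3 or 4, the count of genes shifted alike was 14, 51, 16 or 401. Without aged replicate 1, 3 or 4 of the hearts without the diet it was 77, 70 or 41, and without aged western-diet replicate 1, 3 or 4 it was 108, 83 or 450. It was 89 with a covariate for Y-linked transcripts and 107 with one for atrial markers. In the 8 libraries with Y-linked transcripts 5 genes were called (6 aged and 2 adult hearts), and in the 5 without them 8 genes (3 and 2 hearts). All 258 called genes kept their direction in the former and 257 in the latter, the exception being Gm16867. The aged hearts of the latter are all western-diet hearts, so its difference is aged western diet minus adult and not the pooled one. In the main fit this difference was -0.02 for Gm16867. The hearts of both subsets are part of those on which the genes were called, so the directions are no independent check.

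**Figure D1:**
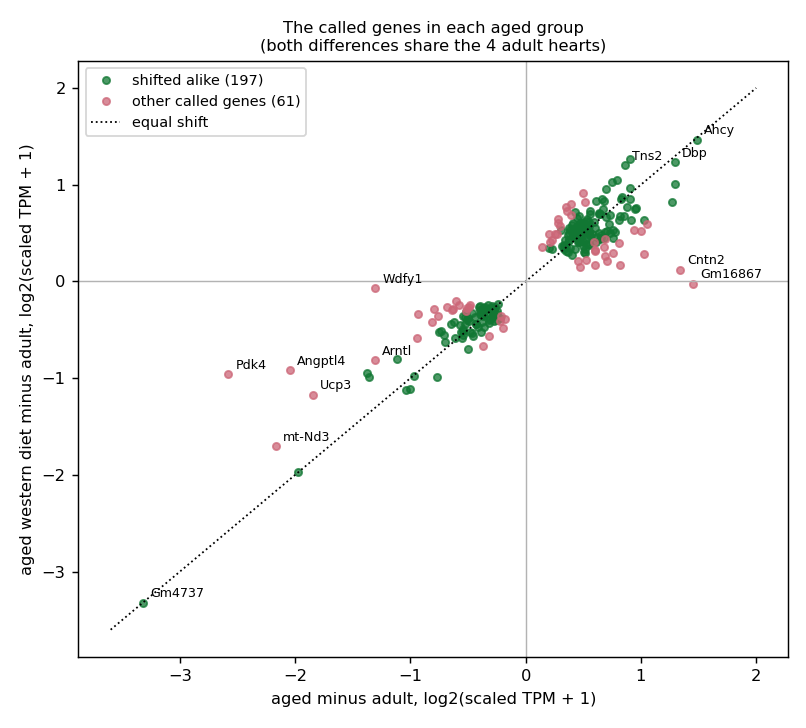
The 258 called genes by their log2 difference from the adults in aged hearts without the diet (horizontal) and in aged western-diet hearts (vertical), on the log2(scaled TPM + 1) scale, with the 197 genes shifted alike in green and the other 61 in pink. Both axes share the 4 adult hearts; Ahcy, Dbp and Tns2 lie near the dotted line of equal shift, whereas Cntn2, Gm16867 and Wdfy1 lie near 0 for the western-diet hearts.

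The circadian clock is a feedback loop in which the activators Arntl (BMAL1) and Clock, or Npas2 in its place, switch on genes through E-box elements in their promoters. Among the genes switched on are the repressors Per, Cry, Nr1d1 and Ciart, which shut the loop down, and the output factors Dbp, Tef and Hlf, which bind D-boxes in further genes. Nr1d1 and Nr1d2 in turn silence Arntl through ROR elements. Transcript levels of most of these swing over the day in heart muscle, and the hour of collection is not known here, so hour and age cannot be told apart.

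The promoters below show these elements in genes that differed with age; they are from RefSeq (GRCm38.p6), read along the gene's strand, and cover the 250 bases before the start. Capitals mark the E-box CACGTG in Ciart (chr3:95882229-95882478, minus strand) and Bhlhe41 (chr6:145865421-145865670, minus strand), and the D-box TTATGTAA in Per3 (chr4:151044666-151044915, minus strand). For Arntl, 27 bases after the start are shown (chr7:113207531-113207557, plus strand), with the ROR element TAGGTCA in capitals.
Ciart: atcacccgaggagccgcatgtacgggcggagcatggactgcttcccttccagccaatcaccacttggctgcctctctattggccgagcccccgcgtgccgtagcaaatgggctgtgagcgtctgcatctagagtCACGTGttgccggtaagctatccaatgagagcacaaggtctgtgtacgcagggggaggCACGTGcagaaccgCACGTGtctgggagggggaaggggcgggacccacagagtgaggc
Bhlhe41: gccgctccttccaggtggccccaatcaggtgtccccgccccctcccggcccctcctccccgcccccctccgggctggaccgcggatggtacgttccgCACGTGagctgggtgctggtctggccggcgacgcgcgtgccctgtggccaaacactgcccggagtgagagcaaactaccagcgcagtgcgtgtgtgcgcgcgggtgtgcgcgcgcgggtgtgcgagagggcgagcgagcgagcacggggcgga
Per3: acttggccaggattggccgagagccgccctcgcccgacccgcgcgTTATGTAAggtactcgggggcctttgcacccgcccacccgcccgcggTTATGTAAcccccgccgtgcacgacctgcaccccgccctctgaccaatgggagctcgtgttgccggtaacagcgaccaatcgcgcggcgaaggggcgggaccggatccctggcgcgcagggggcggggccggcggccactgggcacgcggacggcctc
Arntl: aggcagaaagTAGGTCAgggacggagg
The Ciart window holds 3 E-boxes, at -116, -58 and -44 from the start, and the Bhlhe41 window 1, at -153. The Per3 window holds 2 D-boxes, at -205 and -158, and the ROR element of Arntl begins at 31. In windows of 300 bases (250 before and 50 after the start), searched on both strands, CACGTG occurred in 4 of the 11 repressor and output genes with a promoter in the table (Bhlhe41, Ciart, Per1 and Tef), against 8.09% of all 27025 genes with one. The D-box TTATGTAA occurred in 1 of the 11 and in 1.11% of all genes. TAGGTCA occurred in Arntl and Nfil3 of 6 activators and related regulators, and in 2.97% of all genes. Of the genes shifted alike with a promoter in the table, 15 of 92 that rose and 6 of 56 that fell held an E-box. A match is a stretch of letters and not a measured binding site.

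Of 13 clock repressors and outputs tested, 8 rose in aged hearts and none fell, and 7 of the 8 shifted alike. All 13 had positive values with a median log2 difference of 0.73, against 0.00 (-0.0039) over all genes. Cry1, a repressor of the loop, and Nfil3 are not among these 13 but in the list of activators and related regulators below. Neither was called. The output factor Dbp (ENSMUSG00000059824, GRCm38 chromosome 7, 45705088 to 45710203) was at 3.10, 3.91, 3.29 and 1.38 scaled TPM in the 4 adult hearts. It ran from 5.08 over a median of 8.02 to 11.1 in the 9 aged hearts. The groups did not overlap, and Dbp rose by 1.26 ± 0.20 (SE) on the log2 scale (limma adjusted p = 0.0129), by 1.29 without and 1.23 with the diet.

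Among the repressors, Per2, which blocks the activators' complex, was at 0.312, 0.166, 0.183 and 0.533 scaled TPM in adults and from 0.850 over 1.24 to 2.12 in aged hearts. The groups did not overlap, and Per2 rose by 0.83 ± 0.13 (limma adjusted p = 0.0143). No adult heart reached 1 TPM, so Per2 passed the filter only through aged hearts, and its values lie near that floor. Ciart, a repressor of the activator complex, was at 1.74, 2.49, 1.88 and 3.33 in adults and from 3.30 over 4.46 to 8.81 in aged hearts. Here the highest adult lay above the lowest aged heart, and Ciart rose by 0.83 ± 0.17 (adjusted p = 0.03). Per3, a further Period gene, and Nr1d1, the nuclear receptor that silences Arntl, rose by 0.88 and 0.62 (adjusted p = 0.0374 and 0.0333). The output factor Tef and the E-box repressor Bhlhe41 rose by 0.54 and 0.46 (adjusted p = 0.0408 and 0.0414). Hlf, an output factor of the same family as Dbp and Tef, also rose by 0.73 ± 0.11 (adjusted p = 0.00867), but not alike: its gain was 0.94 without and 0.53 with the diet. Per1, Usp2, Bhlhe40, Nr1d2 and Cry2 lay 0.92, 0.82, 0.56, 0.48 and 0.30 above the adults without passing the test (adjusted p = 0.0644 to 0.14).

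Of 7 activators and related regulators, the repressor Cry1 among them, 2 fell and none rose. Arntl (ENSMUSG00000055116, chromosome 7, 113207465 to 113314126) was at 6.04, 4.12, 3.38 and 4.71 scaled TPM in adults. It was at 1.53, 0.916, 1.58 and 0.915 in aged hearts without the diet and at 1.97, 2.44, 1.46, 1.81 and 3.15 in aged western-diet hearts. Every aged heart lay below every adult heart, with a fall of 1.06 ± 0.15 (log2 scale, adjusted p = 0.00867). The fall was 1.31 without and 0.82 with the diet, and the aged groups differed at an unadjusted p of 0.012 (adjusted p = 0.206), so Arntl did not count as shifted alike. Npas2, the partner that can replace Clock, fell by 0.47 ± 0.10 (adjusted p = 0.0381) but lay near 1 scaled TPM. Its values were -0.64 without and -0.30 with the diet (adjusted p = 0.0254 and 0.183), it did not count as alike, and aged western-diet replicate 5, at 1.14, lay among the adults at 0.905 to 1.33. Clock, Cry1, Nfil3 and Rora ranged from -0.36 to 0.24 without a call. Dbp, Hlf and Arntl remained called with any 1 of the 13 hearts left out. The number of repressors and outputs that rose was between 2 (without adult replicate 3) and 11 (without adult replicate 4), 4 with a Y-linked covariate and 5 after a correction for transcript length.

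**Figure D2:**
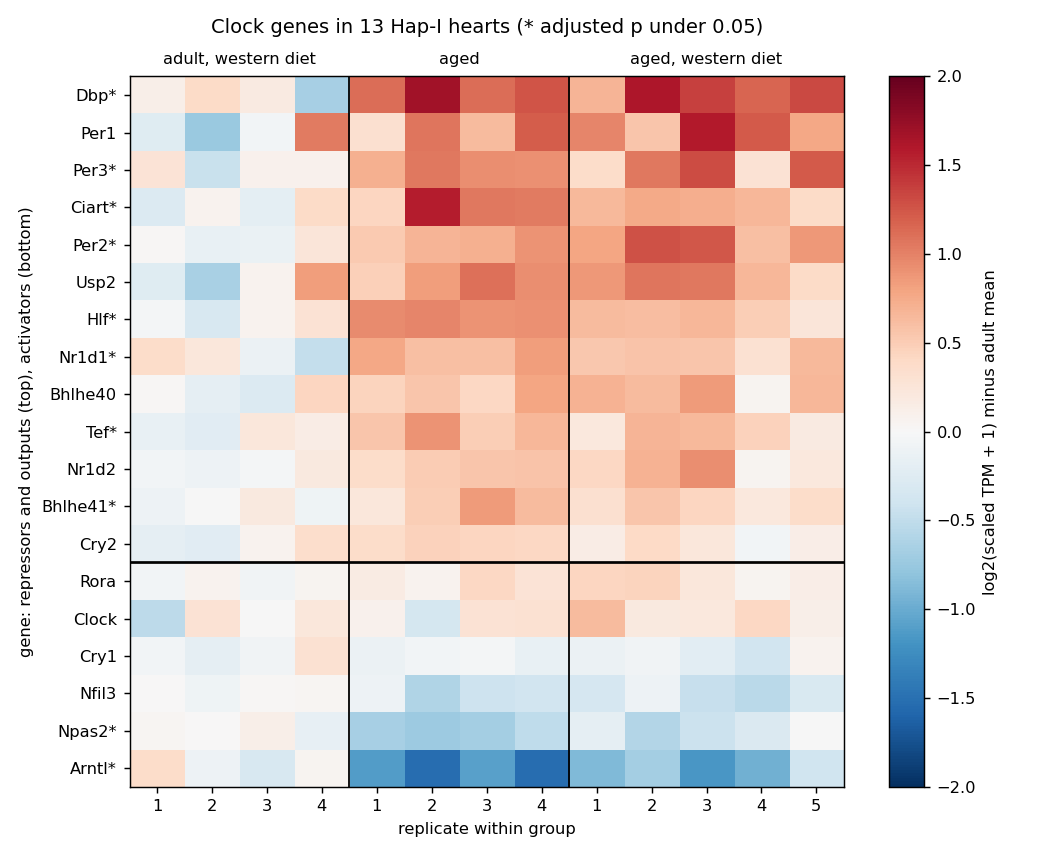
Clock genes (rows, with 6 of the 7 activators and related regulators shown) in the 13 Hap-I hearts (columns, by group and replicate). Colours give log2(scaled TPM + 1) minus the adult mean, and a star marks a limma adjusted p under 0.05. The 13 repressors and outputs above the line are mostly red in the 9 aged hearts, and Arntl and Npas2 at the bottom are mostly blue, with Arntl palest and Npas2 at the adult level in aged western-diet replicate 5.

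Heart muscle burns mainly fatty acids, and the nuclear receptor PPARalpha switches on the genes for it when fatty acids are plentiful. The list of PPARalpha targets and fatty acid oxidation held 35 tested genes, of which 4 fell and none rose in aged hearts; 31 had negative values, with a median of -0.22. Pdk4 (ENSMUSG00000019577, chromosome 6, 5483351 to 5496309), the kinase that holds back glucose oxidation at pyruvate dehydrogenase, was at 249, 221, 162 and 201 scaled TPM in adults. It was at 40.9, 33.4, 32.0 and 29.1 in aged hearts without the diet and at 75.5, 76.9, 154, 155 and 94.4 with it. All 3 groups were separate in order, and Pdk4 had a pooled log2 difference of -1.77 ± 0.20 (adjusted p = 0.0013). Its fall differed between the aged groups, at 2.58 without and 0.96 with the diet (difference 1.62 ± 0.22, adjusted p = 0.0128).

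Ucp3, a mitochondrial carrier protein of muscle, was at 49.8, 43.3, 33.3 and 27.4 scaled TPM in adults and from 8.4 over 12.2 to 25.5 in aged hearts, without overlap. It fell by 1.51 ± 0.19 (adjusted p = 0.00287), by 1.84 without and 1.17 with the diet. Angptl4, a secreted inhibitor of lipoprotein lipase, fell by 1.48 ± 0.25 (adjusted p = 0.0165), by 2.04 and 0.92. Ehhadh, which acts in the peroxisomal breakdown of fatty acids, was the member shifted alike: it was at 5.65, 4.6, 4.8 and 5.65 in adults and from 2.26 over 3.04 to 4.12 in aged hearts. It fell by 0.60 ± 0.10 (adjusted p = 0.0165). Mitochondrial oxidation enzymes were not called, and the log2 differences of 3 of them, Acadvl, Hadha and Cpt1b, were -0.12, -0.03 and -0.04. These 3 do not stand for the list. At an unadjusted limma p under 0.05, 18 of its 35 genes were lower and 1 higher. Over all 11272 genes, 1077 were lower and 1283 higher at that level. The fatty acid transporter Cd36 had a value of -0.38 (adjusted p = 0.0596) and the receptor gene Ppara 0.72 (adjusted p = 0.177). Without scaling between libraries, which moves all genes together, the median of all genes was 0.195 and that of this list 0.03. Pdk4 and Ucp3 were called with any 1 heart left out, and the count of members that fell was between 2 (without adult replicate 1 or 3) and 7 (without aged western-diet replicate 4).

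**Figure D3:**
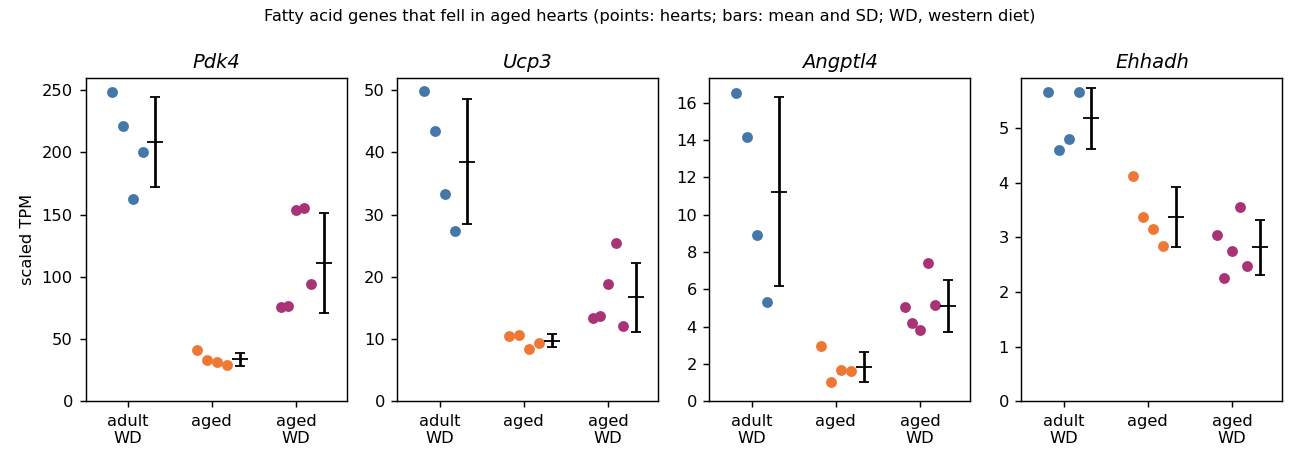
Scaled TPM of Pdk4, Ucp3, Angptl4 and Ehhadh in each heart (points) with the mean and SD of each group (bars; WD, western diet; every vertical axis starts at 0). Aged hearts lie below adults for Pdk4, Ucp3 and Ehhadh, adult replicate 4 lies among the aged western-diet hearts for Angptl4, and the aged groups overlap for Ehhadh.

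On the side of glucose use, 2 of 26 genes of glucose uptake, glycolysis and insulin signalling rose and none fell (median 0.07). Pfkfb2, the heart isoform of the enzyme that makes the glycolytic activator fructose 2,6-bisphosphate, was at 6.72, 10.3, 8.55 and 8.23 scaled TPM in adults and from 9.98 over 13.8 to 18.9 in aged hearts. It shifted alike, by 0.64 ± 0.13 (adjusted p = 0.03), although 1 adult lay above the lowest aged heart. The glucose transporter Slc2a1 rose by 0.46 ± 0.11 (adjusted p = 0.0424) with 0.71 without and 0.21 with the diet, and did not count as alike. None of the 18 genes of the tricarboxylic acid cycle or the 50 nuclear genes of oxidative phosphorylation was called (limma; 2 and 4 had an unadjusted p under 0.05). Of the latter 48 had negative values (median -0.17), and after a correction for transcript length the median was -0.02.

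In the muscle scaffold, some long structural genes rose. Of 30 giant sarcomeric and cytoskeletal genes, 4 rose, all alike, and none fell; 28 had positive values and the median was 0.42. Utrn, utrophin, which links the cytoskeleton to the membrane as dystrophin does, was at 1.44, 2.66, 2.19 and 2.10 scaled TPM in adults and from 3.53 over 4.07 to 6.43 in aged hearts. The groups did not overlap, and Utrn rose by 0.84 ± 0.15 (adjusted p = 0.0204). Xirp2, an actin-binding protein of the intercalated disc, and Dsp, the desmosomal plaque protein desmoplakin, rose by 0.89 and 0.64 (adjusted p = 0.0268 and 0.0361), with overlapping groups. Plec, the cytolinker plectin, rose by 0.58 (adjusted p = 0.0403) without overlap. For Ttn (titin) and Ryr2 the differences of 0.40 and 0.40 were not called (adjusted p = 0.328 and 0.333). Of 27 genes of focal adhesion and linked signalling 3 rose: Tns2 and Tns1, tensins that tie integrins to actin, by 1.03 and 0.48, both alike, and Arhgef12, a guanine nucleotide exchange factor, by 0.44. Tns2 was at 2.78, 1.83, 3.76 and 2.64 in adults and from 3.96 over 6.76 to 10.4 in aged hearts (adjusted p = 0.0226).

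Of 31 chromatin regulators tested, 8 rose, 7 of them alike, and none fell; 26 had positive values and the median was 0.31. Kmt2a, a histone H3 lysine 4 methyltransferase, was at 1.30, 1.30, 1.34 and 1.39 scaled TPM in adults and from 1.85 over 2.35 to 2.96 in aged hearts. The groups did not overlap, and Kmt2a rose by 0.53 ± 0.09 (adjusted p = 0.0165). Mga, a transcription factor of the MAX network, rose by 0.72 (adjusted p = 0.0282). The remodeler Chd2, the demethylase Kdm6b, the acetyltransferase Ep300 and the methyltransferases Setd2 and Ash1l rose by 0.44 to 0.52, and the demethylase Kdm5a by 0.38 but not alike. Outside the list, the related Kmt2e and Chd6 shifted alike by 0.68 and 0.85 (adjusted p = 0.0129 and 0.0194).

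Both groups hold long transcripts, with a median length of 7590 bases for the scaffold list and 7243 for the chromatin list, against 2599.5 for all genes. Across the 11210 genes with a length, which are not independent, the rank correlation of the pooled log2 difference with length was 0.51. Called genes that were higher had a median length of 5494 bases and those that were lower 1737. Within each library, the rank correlation between length and the deviation of genes from their means was 0.16 ± 0.33 (SD, n = 9) in aged and -0.29 ± 0.35 (SD, n = 4) in adult hearts, with ranges of -0.42 to 0.51 and -0.55 to 0.22. After a correction of each library for length, 0 of the 31 chromatin genes were called and their median was 0.06. Of the 30 scaffold genes only Utrn was called, at 0.59 (adjusted p = 0.0376), and their median was 0.23. Among genes named above, Tns2, Kmt2e, Ehhadh, Pdk4, Ucp3, Dbp and Arntl were still called after it, and Plec, Dsp, Xirp2, Tns1, Kmt2a, Mga and Chd6 were not. Without adult replicate 1 or adult replicate 3, no member of either list was called.

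**Figure D4:**
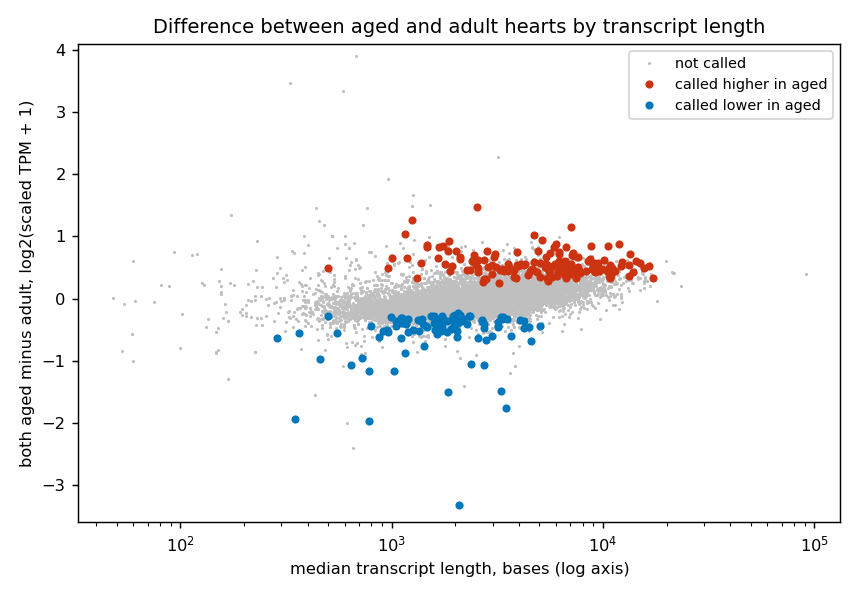
Each tested gene by its median transcript length in bases (horizontal, log axis) and its pooled log2 difference, both aged groups minus adult (vertical); genes called higher are red, lower blue, others grey. The grey cloud slopes upward with length, and most red points lie to the right of most blue points (medians of 5494 and 1737 bases).

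Several metabolic and signalling genes outside these lists shifted alike with separate groups. Ccdc141, a coiled-coil protein gene, was at 19.8, 17.9, 19.2 and 23.5 scaled TPM in adults and from 25.2 over 36.0 to 39.7 in aged hearts. It rose by 0.75 ± 0.11 (adjusted p = 0.00867) and was called with any 1 heart left out. Ccnd2, a cyclin of the G1 phase, was at 11.9, 13.4, 10.5 and 12.7 in adults and from 14.3 over 19.9 to 23.8 in aged hearts, a rise of 0.66 ± 0.11 (adjusted p = 0.0179). Cds1, which makes CDP-diacylglycerol for phospholipids, and Sptbn1, a spectrin of the membrane skeleton, rose by 0.75 and 0.61 (adjusted p = 0.0165 and 0.03). Pcmtd2 rose by 0.55 (adjusted p = 0.0361).

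Among genes that fell alike, Pigu, a subunit of the enzyme that attaches GPI anchors to proteins, was at 16.8, 16.4, 18 and 17.2 scaled TPM in adults. It ran from 9.52 over 11.2 to 12.9 in aged hearts, a fall of 0.57 ± 0.07 on the log2 scale (adjusted p = 0.00488), and was called with any 1 heart left out. Nadk2, the mitochondrial NAD kinase, and Apoo, a subunit of the complex that shapes the inner mitochondrial membrane, fell by 0.60 and 0.63 (adjusted p = 0.0143 and 0.028). Apoo shares 43.3% of its 31-base words with a pseudogene, so its level is less certain. Dhrs3, a retinaldehyde reductase, and Derl2, which serves the removal of misfolded proteins from the endoplasmic reticulum, fell by 0.52 and 0.45 (adjusted p = 0.0182 and 0.0231). Ube2a, a ubiquitin-conjugating enzyme, Smndc1, a splicing factor, and Nlk, a kinase of Wnt signalling, fell by 0.52, 0.52 and 0.46. Cutc and Lrrc27 fell by 0.50 and 0.48 (adjusted p = 0.0449 and 0.0426). Adra1b, the alpha-1B adrenergic receptor, also shifted alike: it was at 16.6, 15.8, 18.8 and 14.7 in adults and from 10.1 over 11.7 to 13.8 in aged hearts (fall of 0.45, adjusted p = 0.0204). It was the only called member of 22 adrenergic and G protein genes. After the length correction, Ube2a, Dhrs3, Cutc and Lrrc27 were no longer called (limma adjusted p = 0.0539 to 0.0737). Pigu, Nadk2, Apoo, Derl2, Smndc1 and Nlk still were.

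The gene with the largest rise by the naming rule, Ahcy, has a near copy. Ahcy (ENSMUSG00000027597, chromosome 2, 155059310 to 155074497), which breaks down S-adenosylhomocysteine, was at 4.76, 4.26, 0.524 and 5.10 scaled TPM in adults and from 9.37 over 10.2 to 11.7 in aged hearts. It rose by 1.47 ± 0.28 (adjusted p = 0.0237). Gm4737, which shares 93.2% of its 31-base words with Ahcy, was listed at 0 in all 9 aged hearts and at 7.66, 7.80, 12.2 and 8.83 in adults. The sum of both was 9.37 to 11.7 in aged and 12.1 to 13.9 in adult hearts, below the adults rather than above. The split of reads between them is an estimate, so the level of each is uncertain. Eif3j2, a copy of the translation initiation subunit gene Eif3j1 that shares 94% of its words with it, was at 18.3, 19.6, 15.9 and 17.8 in adults and from 6.35 over 8.59 to 10.01 in aged hearts. It had a log2 difference of -1.06 ± 0.11 (adjusted p = 0.000461), while Eif3j1 rose by 0.33 ± 0.07 (adjusted p = 0.0369), and their sum was 15.2 to 19.2 in aged against 22.7 to 26.6 in adult hearts.

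Of 13 mitochondrially encoded transcripts, 2 fell. mt-Nd3, a subunit of complex I, was at 19090, 19740, 12047 and 14683 scaled TPM in adults and from 2906 over 4512 to 5748 in aged hearts, a log2 difference of -1.93 ± 0.17 (adjusted p = 7.73e-05). mt-Co3, a subunit of complex IV, fell by 1.17 ± 0.28 (adjusted p = 0.0472). The other 11 were not called, with mt-Nd1, mt-Cytb and mt-Co1 at -0.38, -0.03 and -0.16. The nuclear copies Gm28438 and Gm28437 hold 98.1% and 99.9% of the words of mt-Nd3 and mt-Co3. The sum of mt-Nd3 and Gm28438 ran from 10860 to 21740 in aged and from 15880 to 34000 in adult hearts, with overlap, so both levels are uncertain.

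Agtr1a, the natriuretic peptides, Myh7, Col1a1 and Cdkn1a did not pass the test in the pooled comparison. Agtr1a, the mouse angiotensin receptor, was at 14.4, 12.6, 12.8 and 10.4 scaled TPM in adults and from 10.1 over 14.9 to 19 in aged hearts (log2 difference 0.22 ± 0.11, adjusted p = 0.262). None of 10 renin-angiotensin genes was called by limma (1 at an unadjusted p under 0.05), and Ace, the converting enzyme, had a value of 0.48 (adjusted p = 0.384). The natriuretic peptide genes Nppa and Nppb differed by 0.32 and 0.75 (adjusted p = 0.856 and 0.31), and Myh7, the slow myosin heavy chain, 1.00 ± 0.37 (adjusted p = 0.153). Myh7 was at 43.9, 16.2, 15.6 and 21 in adults and from 23.9 over 44.6 to 104 in aged hearts. Col1a1, a fibrillar collagen gene, had a value of 0.29 ± 0.34 (adjusted p = 0.645), and Cdkn1a, a cell cycle inhibitor of the p53 pathway, -0.32 ± 0.23 (adjusted p = 0.444). For Cdkn1a and Nppa the pooled value averages opposite signs: Cdkn1a was at -0.89 without and 0.25 with the diet (adjusted p of the difference 0.0748), and Nppa at 1.00 and -0.36 (adjusted p of the difference 0.54). None of 34 fibrosis genes or 23 TGF-beta genes was called, though 26 and 20 had positive values (both medians 0.20); 3 and 4 had an unadjusted p under 0.05. The lists of interferon response (25 genes), MHC (14), complement (18), unfolded protein response (23), p53 targets (21) and immediate early genes (17) also held 0 called genes, and 1, 0, 2, 2, 2 and 3 at an unadjusted p under 0.05. The interferon list had a pooled median of -0.02, with -0.45 without and 0.40 with the diet. Fas, a p53 target outside the p53 list, shifted alike with a log2 difference of -0.41 (limma adjusted p = 0.0414). No gene was called among 23 of calcium cycling, 23 of ion channels or 29 of antioxidant defence. An unadjusted limma p under 0.05 was reached by 7, 3 and 7 of them. No call was made either among 27 of autophagy and muscle ubiquitin ligases, 30 of mitochondrial ribosome and import or 22 of cholesterol and fatty acid synthesis. Of these, 7, 7 and 6 had an unadjusted limma p under 0.05. The same held for 15 glucocorticoid genes, 15 of NF-kB signalling, 19 of iron handling, 18 heat shock and 8 histone genes, with 5, 1, 3, 0 and 0. Over all genes tested, the share at an unadjusted p under 0.05 was 20.9%. Of 16 cardiac stress genes, Xirp2 was the only 1 called.

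**Figure D5:**
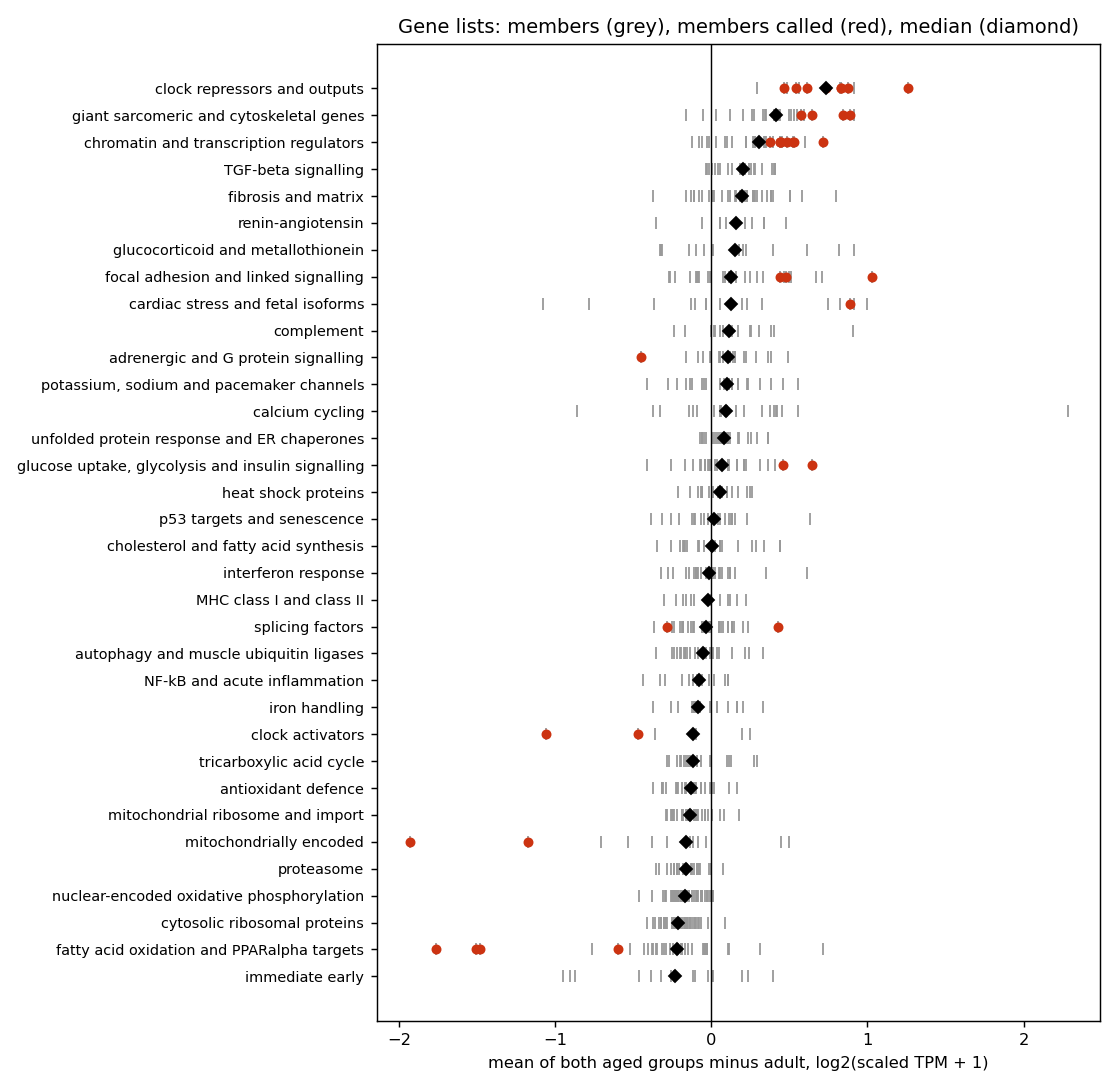
The log2 difference, both aged groups minus adult, of every tested member (grey ticks) of 34 gene lists, with called members in red and the median of each list as a black diamond. Clock repressors and outputs lie farthest right, with all 13 members above 0, and immediate early genes and the fatty acid list farthest left, with medians of -0.23 and -0.22.

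The lists of cytosolic ribosomal protein and proteasome genes had mostly negative values and held no called gene. Translation and protein breakdown genes outside these lists were called. Eif3j2, Ube2a and Derl2 fell, and Eif3j1 and the ubiquitin ligase gene Huwe1 (0.60, limma adjusted p = 0.0397) rose. Of 43 cytosolic ribosomal protein genes 42 had negative values (median -0.21), as had 23 of 25 proteasome genes (median -0.16); 3 and 8 had an unadjusted p under 0.05 in limma. These are short genes, with median lengths of 878 and 1332 bases, and after the length correction the medians were -0.06 and -0.05. Without scaling, which moves all genes together (median 0.195), these medians were 0.04 and 0.08. Of 30 splicing factors, Rbm20, which splices titin, rose alike by 0.42 (adjusted p = 0.0414), and Hnrnpa1 fell by 0.28 but not alike. Neither change was called after the length correction.

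Markers of the cell types of the heart gave few calls. Of 16 marker lists, 6 held 1 called gene each and none held more. Cldn5, the claudin of endothelial junctions, fell by 0.77 (adjusted p = 0.0226), while 10 of the 14 endothelial markers had positive values and the list's median was 0.20. The lymphatic chemokine gene Ccl21a, which shares 80.6% of its words with a near copy, fell by 0.62 alike (adjusted p = 0.0297). Cidea, a lipid droplet protein of fat cells that was also present at 19.8 or more in every heart, fell by 0.40 alike. Cntn2 of the conduction system, Cd209f of macrophages and Pvalb of skeletal muscle rose by 0.73, 0.66 and 0.49, none alike. The summed levels of the endothelial list, in which Fabp4 (log2 difference -0.39) weighs most, were 672 to 981 in aged and 862 to 1109 in adult hearts, and those of the lymphatic list 34.9 to 47.3 and 45.0 to 61.5. The part of cell makeup in the changes above was not tested.

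The remaining 61 called genes differed between the aged groups at an unadjusted p under 0.05, and 5 of them had opposite signs or an adjusted p under 0.05 for that difference. Such differences passed in 17 (0.151%) of all genes. Wdfy1, an endosomal adaptor protein gene, was at 0.811, 1.20, 0.742 and 1.36 scaled TPM in aged hearts without the diet, 2.53 to 4.55 in aged western-diet hearts and 3.72 to 4.14 in adults. Its fall was seen without the diet: -1.30 ± 0.15 against -0.07 ± 0.14 with it (difference adjusted p = 0.00199). Cntn2 was at 2.44, 2.48, 2.88 and 2.58 without the diet, 0.284 to 1.17 with it and 0.127 to 0.879 in adults (difference adjusted p = 0.0128). Gm16867, which shares 98.9% of its words with other genes and is uncertain, was at 2.07 to 4.12 without the diet and at 0.507 or less in both western-diet groups. In all 3 genes, the values of adult and aged western-diet hearts overlapped, and those of aged hearts without the diet lay apart from both. No adult heart reached 1 TPM for Cntn2 or Gm16867, so both passed the filter only through aged hearts.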

How the data were processed

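The authors deposited 1 table of TPM per gene for 16 heart libraries, per the file headers. The submitters' processing notes name the build GRCm38, kallisto and DESeq2 without versions. kallisto splits reads that fit several transcripts by an estimate, so the share of 31-base words a gene has in common with other genes is given where it is large. TPM hold no depth.

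The filter was 1 TPM or more in 3 or more of the 13 Hap-I libraries. Size factors by the median of ratios over these genes ran from 0.675 to 1.24, and log2(scaled TPM + 1) was fitted in limma 3.58.1 (R 4.3.3) with 1 mean per group and a variance trend. The contrast was the equal-weight mean of both aged groups minus the adults. P-values were two-sided and adjusted over all 11272 genes. Fold changes on this scale understate the changes of low genes. The scripts were tested on simulated data. Lengths are medians of a gene's basic GENCODE transcripts in GRCm38, and for the length correction a lowess of gene deviations on log2 length (span 0.5) was subtracted in each library.

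Named were 12 genes per direction with the largest differences among those shifted alike with separate groups whose higher mean reached 5 scaled TPM (29 and 45 were eligible), and up to 4 called genes of smallest p per pathway list with at least 2 called. To these came Agtr1a, Nppa, Nppb, Myh7, Col1a1, Cdkn1a, Pdk4, Dbp and Arntl, and the 4 called genes with the smallest p for a difference between aged groups. Other genes in the text are members of the lists, called markers, copies of named genes or called genes outside the lists, chosen after their values were seen. A few named genes and list members are not reported here. The comparison, the lists and the members were chosen with earlier results of these data known. Replicates are separate animals by the design text. Alternatives were other scalings, pseudocounts, filters, variance settings and thresholds, all 16 libraries, covariates for Y-linked and atrial transcripts, subsets by Y-linked transcripts, the length correction, and leaving out each library.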

Additional observations from a re-analysis of the deposited data

Results flagged for a closer look

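Each of the 56 named genes was examined in each of the 3 groups, and single hearts stood apart from their own group for 5 genes. Chance alone sets aside about 1 in 20 groups examined in this way, and these 5 are fewer than that share. Ahcy was at 0.524 scaled TPM in adult replicate 3 and at 4.26 to 5.1 in the other adults; its near copy Gm4737 was highest, at 12.2, in the same heart. Pigu was at 12.1 in aged replicate 1 without the diet, against 11 to 11.2 in the other 3. Lrrc27 was at 7.8 in adult replicate 2, against 6.24 to 6.45. Ciart was at 3.3 in aged western-diet replicate 5, against 4.18 to 4.58 in the other 4 hearts of that group. Slc2a1 was at 4.7 in aged replicate 3 without the diet, against 5.52 to 5.54.

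The shift from the adults differed between the aged groups for 4 named genes by the limma contrast of these groups. The difference, western diet minus no diet on the log2 scale, was 1.62 for Pdk4 (adjusted p = 0.0128), 1.23 for Wdfy1 (adjusted p = 0.00199), -1.47 for Gm16867 (adjusted p = 0.000296) and -1.22 for Cntn2 (adjusted p = 0.0128).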

How the results depend on the processing

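The pooled comparison called 258 genes and 197 shifted alike. These counts moved to 31 and 21 without scaling, 139 and 97 without a filter, 139 and 107 with a filter at 5 TPM, and 2600 and 1735 with library weights. They were 13 and 7 at an adjusted p under 0.01, 17 and 12 with at least 2-fold, and 479 and 374 in a fit of all 16 libraries. They were 109 and 89 with a covariate for Y-linked transcripts, 132 and 107 with one for atrial markers, and 163 and 117 after the length correction. Among libraries with Y-linked transcripts they were 5 and 4, and among libraries without them 8 genes were called; there and in a fit of 2 groups without a diet term no count of genes shifted alike exists. The other settings changed neither count by over 1.5 times. Leaving out 1 library gave 22 to 563 called genes and 14 to 450 shifted alike: 99, 88 and 61 called without aged replicates 1, 3 and 4, 149, 109 and 563 without aged western-diet replicates 1, 3 and 4, and 23, 77, 22 and 507 without adult replicates 1 to 4. Of 258 calls, 60.9% were higher in aged hearts, against 71% without scaling, 40.3% without a filter, 38.5% and 35.3% under the stricter p and 2-fold thresholds, 20% in libraries with Y-linked transcripts, 47.8% without adult replicate 1 and 51.5% after the length correction. The length correction kept 115 of the 258 calls. Of 50 named genes that were called, 9 were called in each run that left out a library: Ccdc141, Dbp, Eif3j2, Pigu, Arntl, Hlf, Ucp3, Pdk4 and mt-Nd3. The other 41 lost the call in at least 1 such run, with a highest adjusted p of 0.0521 to 0.159. All 50 kept their direction under every setting in which they were tested, except Gm16867 at -0.139 (limma adjusted p = 0.575) among libraries without Y-linked transcripts. There the difference is aged western diet minus adult, which was -0.02 for Gm16867 in the main fit. The cause of the moves in counts and calls was not tested. The subsets by Y-linked transcripts also hold fewer hearts, and the part of this was not tested either. No paired analysis was possible because the labels give no replicate numbers that link animals across groups. The depth behind TPM is unknown, and 4 adult hearts limit the precision.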

Other observations

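Presence or absence rather than level marked Gm4737 (chromosome 16, 46152985 to 46155077) and Pcna-ps2 (chromosome 19, 9283380 to 9284160), a pseudogene of the replication clamp gene Pcna. Both were present in the 4 adult Hap-I hearts and at or near 0 in the 9 aged Hap-I and the 3 adult C57 hearts. Both are near copies whose reads are split by an estimate.

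Ahcy, Pigu and Procr, the gene of the endothelial protein C receptor, which all shifted alike, lie between 155059310 and 155755471 of chromosome 2. Ahcy, whose level is uncertain, rose, and Pigu and Procr fell, Procr by 0.50 (limma adjusted p = 0.0418). They were noticed after their values were seen, and the number of tested genes in this stretch was not counted. Of 943 tested genes on chromosome 2, 31 (3.29%) were called, against 2.29% of all genes; chromosome 15 had 3.51% and chromosome 17 0.926%. Gchfr, the feedback regulator of tetrahydrobiopterin synthesis, fell alike by 1.08 (adjusted p = 0.0314), also chosen after its value was seen.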
